A study of Mus musculus with 18 samples.

Results

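The comparison described here asks what an RNA cargo that cannot cut adds to a manganese framework injected into a mouse melanoma. The comparison sets 3 tumors given M5@NKMOF-101-[Mn], the framework loaded with the inactive ribozyme M5, against 3 tumors given NKMOF-101-[Mn], the same framework without RNA. These 6 tumors were taken by their group and replicate labels from 18 tumors in 6 groups. All 18 were grown from B16F10, a pigmented mouse melanoma cell line, placed subcutaneously in female C57BL/6 mice, on the right flank. Injections into the tumor began on day 6, at about 50 mm3, and were repeated every 2 days, and RNA was taken from whole tumors 48 h after the last one. Both groups therefore share the host strain, the cell line, the framework, the injection itself and the schedule, and they differ by the RNA. The age of the mice and the framework dose of the empty carrier are not given in the sources used here. No group with M5 and without a framework was sequenced among these tumors, so M5 alone cannot be told apart from M5 in its carrier. The labels number the tumors within a group and do not say whether each came from its own animal. The p-values therefore measure the spread between samples.

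A Pistol ribozyme is a small RNA that folds around a stretch of a partner RNA and cuts it at a defined GU step. Its substrate is held by base pairing on both sides of the cut, so changing the arms changes the target. NKMOF-101-[Mn] is a framework of manganese ions joined by squaric acid that takes up RNA and releases it in acid. RNA carried into a cell can be read in more than 1 way. As an antisense strand it can pair with its target without cutting it, and as foreign RNA it can be sensed by RIG-I (Rigi) and MDA5 (Ifih1) in the cytosol or by Toll-like receptors in endosomes. Those sensors switch on interferon genes, and interferon in turn raises antiviral effectors, antigen presentation genes and Cd274, the gene for the checkpoint ligand PD-L1. Manganese ions are known to favor signaling by the DNA sensor cGAS and its adaptor STING, which feeds the same interferon response.

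The cargo is shown beside the active ribozyme PS473, because the comparison turns on what was changed in it. In both lines below, capitals mark the positions at which the bases differ:
PS473: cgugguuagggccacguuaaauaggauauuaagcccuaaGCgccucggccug
M5: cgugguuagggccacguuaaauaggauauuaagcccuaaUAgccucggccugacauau
Counted from 1 at the 5′ end, M5 carries G40U and C41A. Position 40 is a conserved guanine of the Pistol active site. M5 is 58 nucleotides long and its 3′ arm pairs without a mismatch with 16 nucleotides of the Cd274 transcript. The PS473 shown is the shorter screening form of 52 nucleotides, with 10 such nucleotides. The name PS473 was later given to a form described as pairing with 16 nucleotides in this arm, as M5 does. The sequence listed for that form ends in a further A and holds a repeated stretch. Its exact difference from M5 was therefore not settled here. The stretch of Cd274 that both arms of M5 pair with is given 5′ to 3′, with the GU at the cleavage step in capitals:
Cd274 site: auaugucaggccgaggGUuauc
It covers 22 nucleotides at chr19:29380366-29380387 on the plus strand of mouse build GRCm38 (GENCODE M21). The site lies in exon 4 of 7, in coding sequence, at coding positions 457 to 478. Of these nucleotides, 16 precede the GU and 4 follow it. M5 thus holds the antisense arms of the ribozyme, with a changed catalytic site.

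Sequencing libraries came from RNA selected by its poly(A) tail, and the authors deposited FPKM, the fragments of a gene scaled to its length and to the depth of the library. From the steps between low values, the depth was 17200000 to 20100000 fragments in the M5@NKMOF-101-[Mn] tumors and 17800000 to 22200000 in the NKMOF-101-[Mn] tumors, taking the commonest step as 1 fragment. In these 6 tumors 97.7% to 98.3% of values above 0 were multiples of 0.25 of that step and 41.0% to 41.8% of the whole step, so the step may not be 1 fragment and these depths are estimates. The B16F10 label was borne out by its markers, with Pmel, a melanosome protein, at 1749, 1455 and 1836 FPKM in the M5@NKMOF-101-[Mn] tumors against 1109, 1471 and 1168 FPKM in the NKMOF-101-[Mn] tumors. Other tissue was present in uneven amounts. Skin epithelium markers summed to 13.9, 11.0 and 770.4 FPKM against 1971, 13.7 and 203 FPKM, so that NKMOF-101-[Mn] tumor 1 and M5@NKMOF-101-[Mn] tumor 3 held the most skin signal. In whole-tumor libraries such as these, fewer cells of a type and less RNA in each cell cannot be told apart. Tumor 1 of the NKMOF-101-[Mn] group stood apart: its correlation with each of the other 5 tumors over log2(FPKM + 1) was 0.947 to 0.971, while tumors 2 and 3 of its group reached 0.987 with a tumor of the other group.

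Levels were compared as log2(FPKM + 1) with limma over 12357 of 41079 genes, those that averaged 1 FPKM or more across the 18 tumors. All 18 tumors in 6 groups were in the fit, so standard errors, intervals and limma p-values draw on the spread within all 6 groups. A log2 fold change is given below as M5@NKMOF-101-[Mn] minus NKMOF-101-[Mn] on that scale with its standard error. Genes were called at an adjusted p under 0.05 and more than 2-fold. By that rule 0 genes were higher and 0 were lower, a percentage of 0 of the genes tested in each direction. The smallest Benjamini-Hochberg adjusted p of the limma fit was 0.9998. At an unadjusted p under 0.05, 107 genes (0.866%) were higher and 272 (2.2%) lower in the M5@NKMOF-101-[Mn] tumors. Together these are 379 genes or 3.07%, fewer in this fit than the 5% that this threshold passes in the absence of any difference. That share depended on the fit. It was above 5% with the 2 groups alone (374 higher and 710 lower) and with array weights (538 higher and 1176 lower). Differences beyond 2-fold were found in 10 of them (0.0809%) in the higher direction and 34 (0.275%) in the lower one, and 6 and 15 of those were genes under 300 bases, which poly(A) libraries count poorly. The groups did not overlap for 552 genes with all 3 M5@NKMOF-101-[Mn] tumors higher (4.47%) and 1298 genes with all 3 lower (10.5%).

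The tilt toward lower values depended on the scale. Of all genes tested, 40.1% had a positive log2 fold change and the median was -0.03. Among the 379 genes, 28.2% were higher, against 52.0% (194 higher and 179 lower) after quantile normalization and 53.2% (185 higher and 163 lower) after upper-quartile scaling. The numbers without overlap moved likewise, to 996 higher and 757 lower after quantile normalization. A change of scale moved the median of all genes by less than 0.1, so list medians of larger size are reported as measured. No single gene below passed the adjusted test, and the values that follow are descriptions of these 6 tumors.

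**Figure D1:**
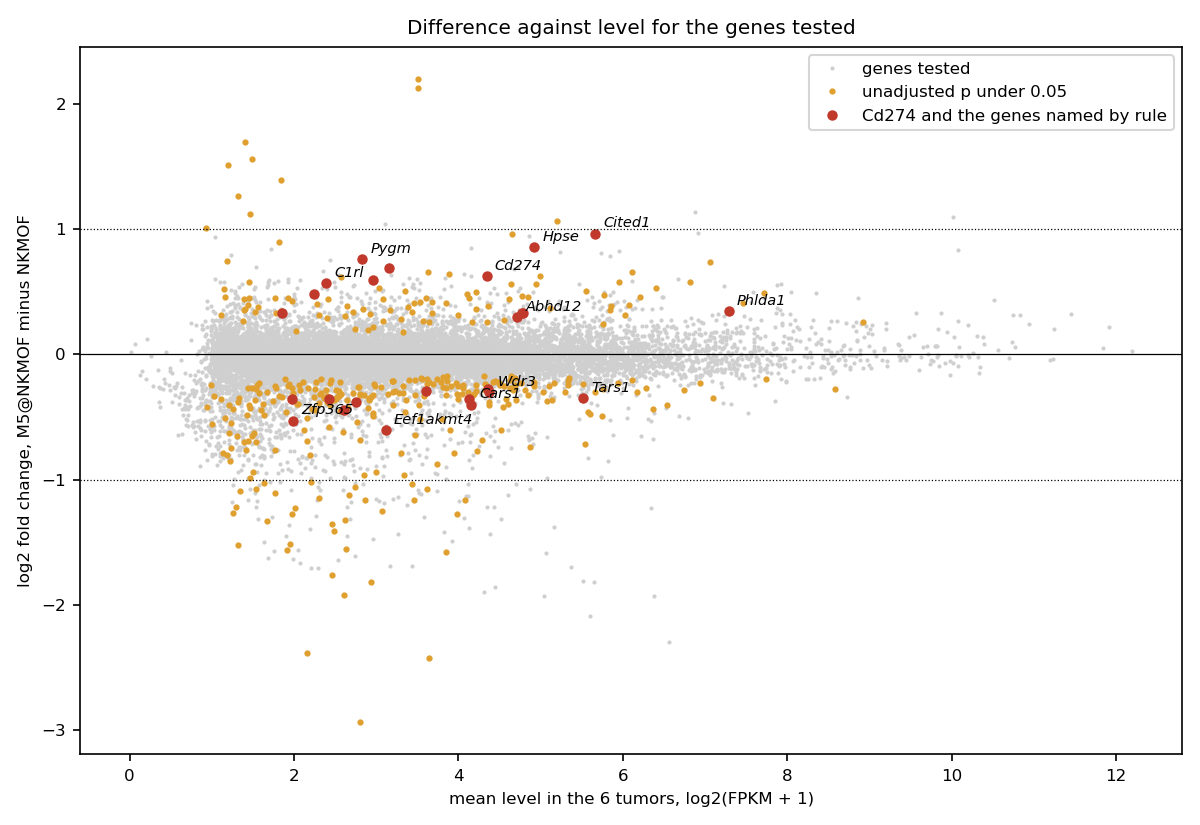
Mean level of each tested gene in the 6 tumors, log2(FPKM + 1), against its log2 fold change (M5@NKMOF, here short for M5@NKMOF-101-[Mn], minus NKMOF, short for NKMOF-101-[Mn]). Gray points are all 12357 genes, orange points those with an unadjusted p under 0.05, red points Cd274 and the 24 genes named by rule, and dotted lines mark 2-fold. The named genes lie within 2-fold, and the points beyond the lower line outnumber those beyond the upper one.

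Cd274, the transcript that the arms of M5 match, was not lower in the tumors that received M5. It stood at 21.8, 21.0 and 28.2 FPKM in the M5@NKMOF-101-[Mn] tumors against 14.1, 14.6 and 15.9 FPKM in the NKMOF-101-[Mn] tumors. The groups did not overlap, the M5@NKMOF-101-[Mn] values being the higher ones, with a ratio of means of 1.59. The log2 fold change was 0.63 ± 0.34 (95% interval -0.09 to 1.35, limma adjusted p 1.00). A two-sided exact permutation test gave p = 0.1, the smallest value that 3 tumors against 3 allow. The interval reaches only to -0.09 on the lower side. It draws on the spread within all 6 groups. The SD was 3.94 FPKM in the M5@NKMOF-101-[Mn] tumors and 0.94 FPKM in the NKMOF-101-[Mn] tumors. In the other groups it ran from 1.21 FPKM (Free PS473) to 11.9 FPKM (PS473@NKMOF-101-[Mn]). For the same gene PBS tumors had 21.5, 15.7 and 12.3 FPKM and PS473@NKMOF-101-[Mn] tumors 17.0, 32.9 and 9.74 FPKM. The M5@NKMOF-101-[Mn] values thus lie within the range of the other groups, and the NKMOF-101-[Mn] values sit in a narrow band inside the PBS range. Among the other immune checkpoint genes tested, 9 in number, log2 fold changes ran from -0.27 to 0.10, and 4 of 10 with Cd274 included were higher (list median -0.04, 0.01 after quantile normalization). The receptor gene Pdcd1 and the second ligand gene Pdcd1lg2 were below the filter.

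Interferon-induced genes were higher as a group, by modest amounts. Of the antiviral effectors, 35 of 37 had a positive log2 fold change, with a median of 0.35 against -0.03 for all genes tested. In 20 of the 37 (54.1%) all 3 M5@NKMOF-101-[Mn] tumors were above all 3 NKMOF-101-[Mn] tumors, where 4.47% of all genes were. Interferon raises these genes together, so the members are not separate observations. The list summed to 1330, 1151 and 1256 against 933, 813 and 1045 FPKM. In PBS tumors it summed to 1327, 780 and 835 FPKM and in PS473@NKMOF-101-[Mn] tumors to 1124, 1942 and 990 FPKM. The M5@NKMOF-101-[Mn] sums thus lie within the range of the other groups. Leaving out 1 tumor at a time gave medians of 0.19 to 0.43, the lowest without NKMOF-101-[Mn] tumor 2. Without both skin-rich tumors 36 of 37 were higher. After quantile normalization 23 of the 37 (62.2%) were higher without overlap, against 8.06% of all genes. After upper-quartile scaling 24 (64.9%) were, against 7.62% of all genes. Only Ifi27, an interferon-induced protein of mitochondria, had an unadjusted p under 0.05, and no member was lower without overlap. Ifi27 was at 200.3, 116 and 184 FPKM in the M5@NKMOF-101-[Mn] tumors against 92.5, 96.8 and 102 FPKM in the NKMOF-101-[Mn] tumors, a log2 fold change of 0.74 ± 0.33. Ifitm3, which blocks virus entry at the endosome, was at 336, 274 and 315 against 207, 193 and 256 FPKM (0.50 ± 0.26). Bst2, the tetherin that holds virions at the membrane, was at 285, 267 and 256 against 205, 189 and 238 FPKM (0.36 ± 0.28). In these 3 genes the groups did not overlap. Other genes, chosen after the values were seen, include Isg15, a ubiquitin-like modifier, at 35.4, 31.7 and 32.2 against 26.6, 19.2 and 31.2 FPKM. Ifit3, which binds RNA sensors, was at 11.3, 8.98 and 9.51 against 6.35, 4.49 and 7.55 FPKM. The 2 members with a negative value were Epsti1 and Slfn2, at -0.37 and -0.11, and Mx1, a GTPase against viruses, was near 0 at 0.03. Reads of Ifit3 may be shared with its near-identical copy Ifit3b.

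The sensors upstream had medians closer to 0. Of the RNA sensors and adaptors 15 of 21 were higher with a median of 0.12, which went to 0.00 without NKMOF-101-[Mn] tumor 2, and 5 (23.8%) did not overlap against 4.47% of all genes. Those 5 were Tlr3, Rigi, Dhx58, Ticam1 and Zbp1, which make up that count. Rigi, which senses short RNA with a 5′ triphosphate, was at 7.74, 6.07 and 6.55 FPKM in the M5@NKMOF-101-[Mn] tumors against 4.93, 3.26 and 4.89 FPKM in the NKMOF-101-[Mn] tumors. The difference was 0.55 ± 0.29 (95% interval -0.07 to 1.16). Dhx58, its regulator LGP2, was at 8.90, 8.61 and 8.79 against 6.66, 4.45 and 6.79 FPKM. Zbp1, a sensor of Z-form RNA, was at 16.2, 15.0 and 15.4 against 11.7, 7.70 and 12.9 FPKM. Tlr3, the endosomal receptor for double-stranded RNA, was at 3.65, 3.46 and 3.89 against 3.14, 2.71 and 2.68 FPKM. The M5@NKMOF-101-[Mn] tumors were close to each other in these genes, and NKMOF-101-[Mn] tumor 2 was the lowest in most. By contrast Ifih1, the gene for MDA5, overlapped at 4.59, 4.51 and 4.57 against 5.14, 2.75 and 4.54 FPKM. Eif2ak2, the gene for the kinase PKR, overlapped as well, at 6.63, 6.50 and 6.62 against 6.61, 4.82 and 6.07 FPKM. The most abundant members, Dhx9, Irak1 and Unc93b1, had log2 fold changes of -0.06, -0.02 and -0.25. Tlr7, the receptor for single-stranded RNA, was below the filter, at 0.186, 0.439 and 0.352 against 0.663, 0.364 and 0.356 FPKM. Oas1a, an oligoadenylate synthetase that answers double-stranded RNA, overlapped at 11.2, 6.78 and 10.5 against 6.82, 5.47 and 7.41 FPKM.

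Signaling genes between sensor and effector were slightly higher for the most part. Of the interferons, receptors and JAK-STAT genes 17 of 20 were higher, with a median of 0.10 that went to -0.00 without NKMOF-101-[Mn] tumor 2. Usp18, an interferon-induced brake on the receptor, was at 16.6, 10.2 and 11.0 against 9.31, 5.70 and 8.86 FPKM (0.60 ± 0.44), without overlap. Stat3, which serves interleukin 6 and related cytokines, was at 38.0, 40.8 and 47.9 against 34.4, 26.5 and 37.3 FPKM, also without overlap. Ifngr1, the binding chain of the interferon gamma receptor, was lower without overlap, at 8.10, 9.72 and 8.99 against 15.2, 9.96 and 10.2 FPKM. Interferon beta itself (Ifnb1) was near 0, at 0.210, 0.0598 and 0.0608 against 0, 0 and 0 FPKM, below the filter. Of the cGAS-STING genes 7 of 12 were higher (median 0.11, 0.06 without NKMOF-101-[Mn] tumor 2). Sting1 was higher at 11.5, 10.5 and 12.0 against 9.63, 9.33 and 9.20 FPKM. Cgas, the sensor upstream of it, was lower at 5.84, 6.07 and 5.48 against 8.14, 6.13 and 6.24 FPKM, both without overlap. Irf7, the factor that amplifies type I interferon, was at 12.2, 9.16 and 13.4 against 9.94, 4.89 and 7.45 FPKM with the groups overlapping, and Tbk1 and Samhd1 had log2 fold changes of -0.03 and -0.12.

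**Figure D2:**
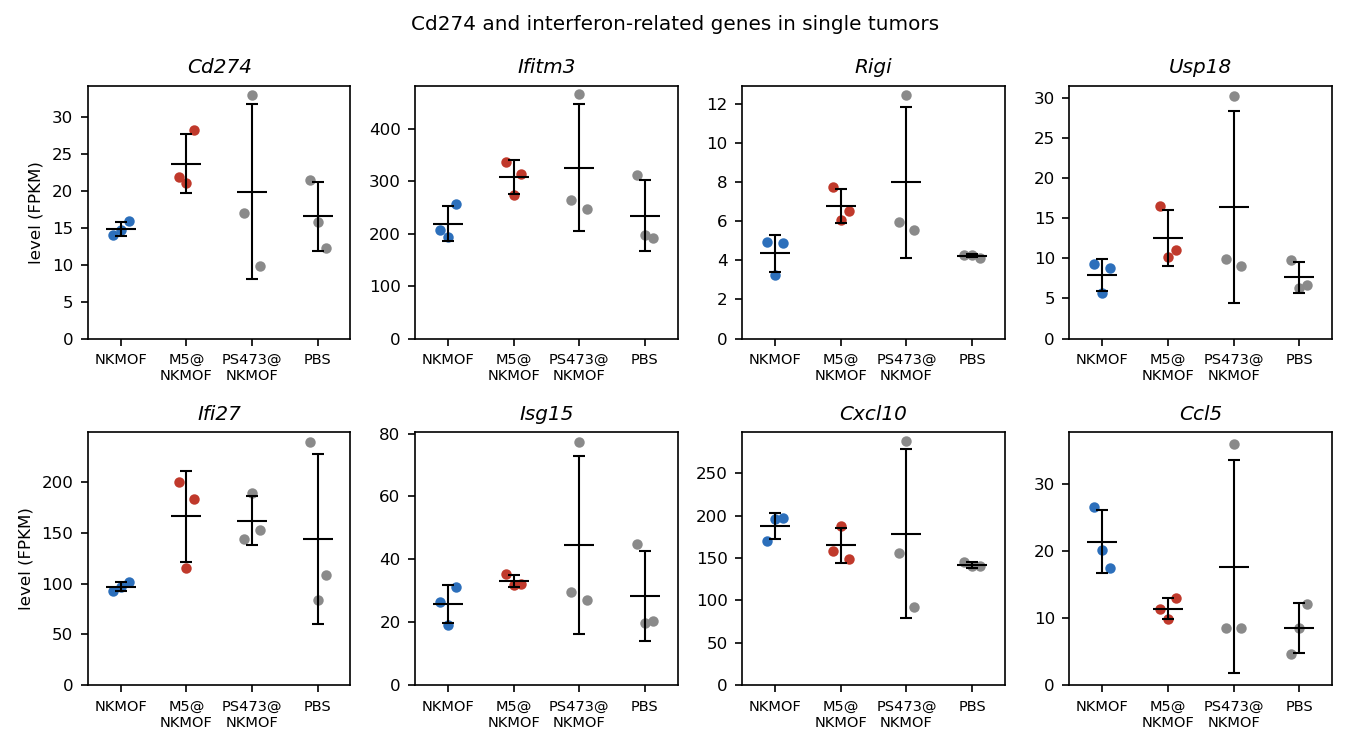
Level in FPKM of Cd274 and 7 interferon-related genes in single tumors (points), with the mean and SD of each group of 3 (bars), for NKMOF (NKMOF-101-[Mn]), M5@NKMOF (M5@NKMOF-101-[Mn]), PS473@NKMOF (PS473@NKMOF-101-[Mn]) and PBS. M5@NKMOF tumors are above NKMOF tumors in Cd274, Ifitm3, Rigi, Usp18, Ifi27 and Isg15, overlap them in Cxcl10 and are below them in Ccl5, and 1 PS473@NKMOF tumor is far above its group in most panels.

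Most genes of antigen presentation and of the interferon gamma response were higher too. Guanylate-binding proteins and immunity-related GTPases, which attack vacuoles of pathogens, were higher in 15 of 15 (median 0.38, 0.19 to 0.54 with 1 tumor left out, the lowest without NKMOF-101-[Mn] tumor 2), and 4 (26.7%, against 4.47% of all genes) did not overlap (Gbp9, Gbp10, Igtp and Tgtp2). Igtp was at 59.1, 74.6 and 68.4 FPKM in the M5@NKMOF-101-[Mn] tumors against 52.5, 35.1 and 56.7 FPKM in the NKMOF-101-[Mn] tumors. Gbp10, the member with the largest difference, was at 2.60, 2.14 and 3.08 against 1.19, 1.05 and 1.41 FPKM, and Gbp2 and Irgm1 overlapped, with log2 fold changes of 0.30 and 0.38. Several of these genes have near-identical copies (Tgtp1 and Tgtp2 for example), between which reads may be split. For MHC class I presentation 18 of 22 were higher (median 0.18, 0.06 without NKMOF-101-[Mn] tumor 2), 6 (27.3%) without overlap against 4.47% of all genes. B2m, the light chain of class I molecules, was at 1999, 1861 and 2184 against 1673, 1685 and 1495 FPKM (0.32 ± 0.22). Psmb9, an immunoproteasome subunit, was at 63.4, 58.9 and 65.5 against 45.7, 38.6 and 48.2 FPKM. H2-D1 was at 475, 441 and 527 against 442, 368 and 420.1 FPKM. The chaperone gene Calr was level, at 439, 435 and 365 against 408, 429 and 399.9 FPKM. For MHC class II 8 of 11 were higher (median 0.30), 3 (27.3%) without overlap (H2-DMa, H2-DMb1 and H2-Eb1) against 4.47% of all genes. The class II list summed to 711, 668 and 872 against 711, 587 and 535 FPKM, with the groups overlapping. Cd74, the invariant chain, was at 281, 215 and 344 against 222, 188 and 156 FPKM. H2-Aa was at 92.3, 85.8 and 128 against 85.9, 76.6 and 58.6 FPKM. In each of the pair 1 M5@NKMOF-101-[Mn] tumor lay inside the range of the NKMOF-101-[Mn] group. Lgmn, a lysosomal protease, was at 94.7, 121 and 114 against 136, 97.6 and 123 FPKM.

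Chemokine and cytokine genes were mostly lower, including some that interferon is known to induce. Of the chemokines and receptors 17 of 20 were lower, with a median of -0.42 (-0.55 to -0.18 with 1 tumor left out, nearest to 0 without M5@NKMOF-101-[Mn] tumor 1), and the summed level of the list was 222, 294 and 258 FPKM against 383, 305 and 331 FPKM, without overlap. Cxcl10, an interferon-induced attractor of T cells and the most abundant member, was at 158, 189 and 149 FPKM in the M5@NKMOF-101-[Mn] tumors against 169.7, 196 and 197 FPKM in the NKMOF-101-[Mn] tumors. Its difference of -0.19 ± 0.29 has a 95% interval of -0.81 to 0.44. Of the 20, 2 (10%) were lower without overlap, close to the 10.5% of all genes. Ccl5, which attracts T cells and monocytes, was lower without overlap at 11.3, 9.86 and 13.0 against 26.7, 20.2 and 17.5 FPKM (-0.84 ± 0.54). Cxcl1, a neutrophil attractant, was at 0.669, 0.443 and 0.555 against 2.88, 2.99 and 0.913 FPKM, also without overlap. Ccl8, a monocyte attractant, was at 5.51, 7.25 and 16.7 against 55.3, 16.0 and 18.4 FPKM, where NKMOF-101-[Mn] tumor 1 is far above the others. Among inflammatory cytokines, TNF and NF-kB genes 18 of 23 were lower (median -0.18, -0.09 without NKMOF-101-[Mn] tumor 1). Tnf, Il1b and Il6 were below the filter, and Tnfrsf1a, Nfkbia and Nfkbib had log2 fold changes of 0.06, -0.28 and -0.02. Of the 23, 2 (8.70%) were lower without overlap, Tgfb1 and Vcam1, against 10.5% of all genes. Tgfb1 was at 3.43, 5.69 and 4.39 against 11.6, 6.17 and 6.56 FPKM. The adhesion molecule Vcam1 was at 0.513, 1.44 and 1.37 against 4.19, 3.20 and 1.51 FPKM.

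Complement genes were mixed, with 4 of 16 higher (C1rl, C2, C1ra and C4b) and 2 lower (Cfb and Cfp) without overlap, or 25% and 12.5% against 4.47% and 10.5% of all genes. C1rl, a relative of the C1r protease, had the smallest p of all higher genes, at 5.28, 4.50 and 6.01 FPKM in the M5@NKMOF-101-[Mn] tumors against 2.71, 3.42 and 3.53 FPKM in the NKMOF-101-[Mn] tumors, a difference of 0.57 ± 0.12. C2, the protease of the classical pathway, was also higher without overlap, at 80.4, 61.0 and 78.0 against 46.1, 54.4 and 44.6 FPKM (0.58 ± 0.24). The macrophage products C1qa and C1qb overlapped. C1qa was at 39.1, 76.6 and 54.0 against 92.4, 58.7 and 73.0 FPKM. C1qb was at 40.7, 90.8 and 59.0 against 103, 55.4 and 75.4 FPKM. In all 10 of 16 were lower, the median of -0.27 going to -0.10 without NKMOF-101-[Mn] tumor 1, -0.03 without M5@NKMOF-101-[Mn] tumor 1 and -0.55 without M5@NKMOF-101-[Mn] tumor 2.

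Several of the lower genes with the smallest p belong to amino acid supply and tRNA charging. Of the 12 lower genes with the smallest p, Tars1 and Cars1 encode the enzymes that load threonine and cysteine onto tRNA, Xpot exports tRNA from the nucleus and Cebpg is a partner of ATF4, the factor that restores amino acid supply under stress. Tars1 was at 41.7, 38.0 and 37.6 FPKM in the M5@NKMOF-101-[Mn] tumors against 49.8, 51.1 and 49.1 FPKM in the NKMOF-101-[Mn] tumors, a difference of -0.35 ± 0.10. Cars1 was at 13.2, 15.4 and 14.3 against 16.0, 19.7 and 22.2 FPKM (-0.40 ± 0.12). Xpot was at 16.9, 18.8 and 17.1 against 20.9, 21.1 and 22.6 FPKM. Cebpg was at 10.4, 9.97 and 9.47 against 12.5, 12.8 and 11.9 FPKM. In each of these 4 genes all 3 M5@NKMOF-101-[Mn] tumors were below all 3 NKMOF-101-[Mn] tumors. Their choice by smallest p makes such separation likely, so it adds no support.

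In the list of the unfolded protein and integrated stress response, 17 of 19 members were lower (median -0.21), 6 of them (31.6%) without overlap against 10.5% of all genes. The 4 of 19 members past an unadjusted p of 0.05, all lower, were Asns, Creld2, Atf4 and Trib3. Of all genes tested, 2.2% were lower at that threshold. Atf4 itself was at 121, 119.8 and 118 FPKM in the M5@NKMOF-101-[Mn] tumors against 142, 159 and 157 FPKM in the NKMOF-101-[Mn] tumors, a difference of -0.35 ± 0.14. Asns, asparagine synthetase and a target of ATF4, was at 38.7, 37.7 and 42.3 against 46.7, 62.1 and 58.2 FPKM (-0.47 ± 0.17). Trib3, a pseudokinase induced by ATF4, was at 15.4, 16.3 and 19.2 against 20.2, 24.8 and 36.1 FPKM (-0.61 ± 0.26). Creld2, which is induced by endoplasmic reticulum stress, was at 44.5, 40.4 and 32.8 against 62.8, 53.9 and 46.5 FPKM (-0.46 ± 0.17). The chaperones Hspa5, Hsp90b1 and Manf had log2 fold changes of -0.22, -0.09 and -0.26, and Ddit3, the gene for CHOP, was at 13.7, 13.5 and 12.5 against 11.8, 14.3 and 13.8 FPKM. The median was -0.23 to -0.15 with 1 tumor left out and -0.11 without both skin-rich tumors, when 4 of 19 were higher. The list summed to 1266, 1242 and 1150 against 1474, 1465 and 1327 FPKM. In PBS tumors it summed to 1178, 1230 and 1278 FPKM and in PS473@NKMOF-101-[Mn] tumors to 1185, 1171 and 1127 FPKM. The M5@NKMOF-101-[Mn] sums overlapped those of both.

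After these values were seen, 3 further lists were written from gene families and pathway knowledge, to describe the surroundings of the genes above. They were chosen from the result and support nothing. Of all genes tested, 10.5% were lower without overlap on the deposited scale, 6.13% after quantile normalization and 6.52% after upper-quartile scaling. All cytoplasmic aminoacyl-tRNA synthetases were measured, and 18 of 20 were lower (median -0.15), 10 without overlap on the deposited scale, 8 after quantile normalization and 5 after upper-quartile scaling. Mars1, for methionine, was at 20.7, 23.5 and 21.1 against 27.5, 26.8 and 25.9 FPKM. Nars1, for asparagine, was at 70.1, 67.0 and 71.6 against 75.4, 89.7 and 86.8 FPKM. Kars1, for lysine, was at 83.1, 95.6 and 84.2 against 80.1, 89.5 and 103 FPKM. The synthesis, import and one-carbon genes were lower in 24 of 27 (median -0.37), 19 without overlap on the deposited scale, 13 after quantile normalization and 15 after upper-quartile scaling. With 1 tumor left out the medians were -0.23 to -0.11 and -0.47 to -0.30, both farthest from 0 without NKMOF-101-[Mn] tumor 1 and nearest to 0 without NKMOF-101-[Mn] tumor 3. Without both skin-rich tumors they were -0.22 and -0.49. Mthfd2, a mitochondrial folate enzyme, was at 45.3, 42.8 and 42.7 against 51.6, 68.1 and 66.4 FPKM (-0.49 ± 0.15). Slc1a4, a carrier of alanine and serine, was at 4.21, 3.66 and 4.96 against 5.70, 6.98 and 10.2 FPKM (-0.69 ± 0.22). Shmt2, which splits serine for one-carbon units, was at 82.9, 80.9 and 73.3 against 95.1, 116 and 104 FPKM (-0.40 ± 0.14). Phgdh, the first enzyme of serine synthesis, was at 133, 118 and 130.3 against 141, 181 and 180.4 FPKM. Aldh1l2, another mitochondrial folate enzyme, was at 3.62, 3.97 and 3.70 against 6.12, 5.35 and 7.59 FPKM. These genes also varied within the other groups. In PBS tumors Atf4 was at 139, 153 and 108 FPKM, Asns at 56.8, 58.6 and 40.1 FPKM and Mthfd2 at 48.7, 47.5 and 49.2 FPKM. In PS473@NKMOF-101-[Mn] tumors Atf4 was at 114, 119 and 144 FPKM, Asns at 55.9, 41.0 and 67.9 FPKM and Mthfd2 at 56.6, 43.0 and 67.7 FPKM.

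**Figure D3:**
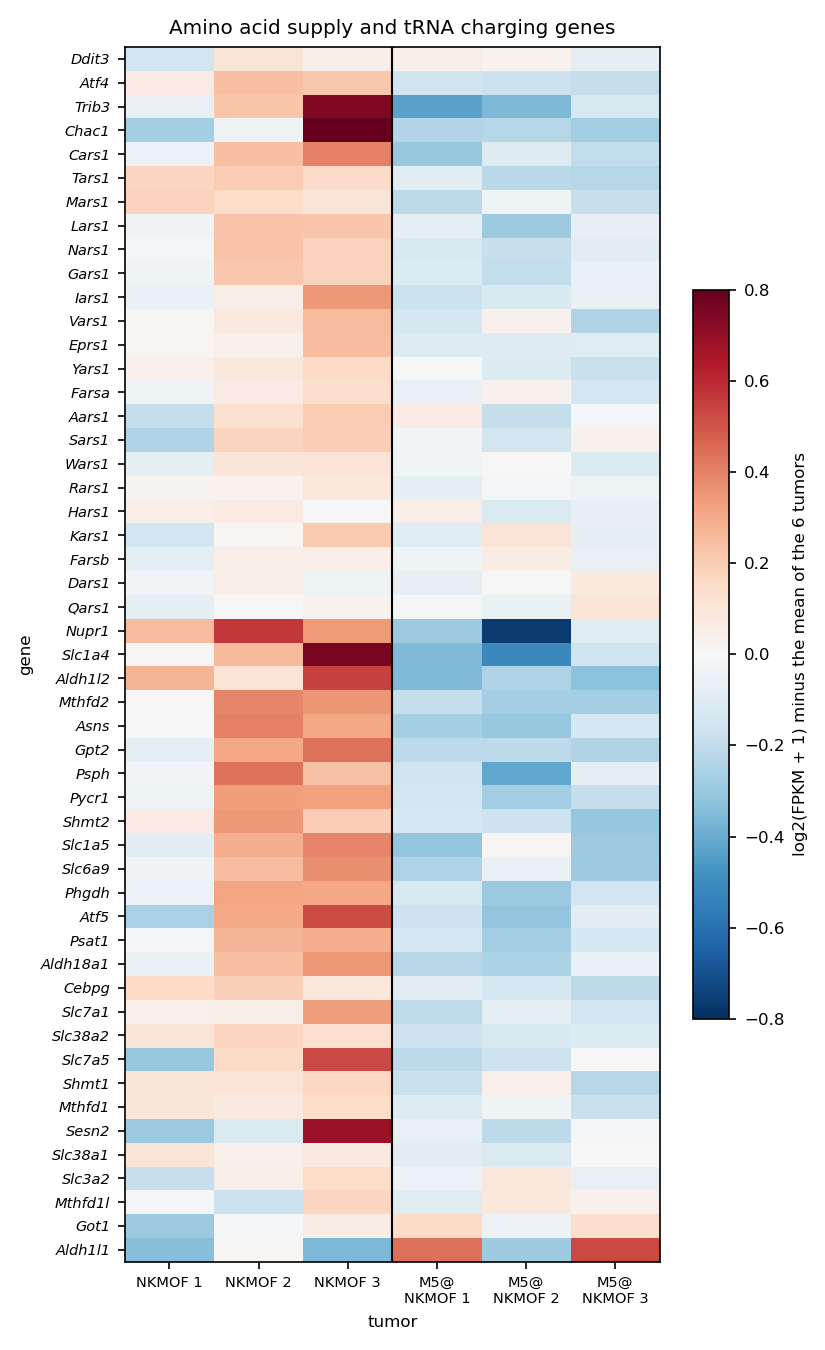
Genes of tRNA charging, amino acid supply and the ATF4 response (rows) in the 6 tumors (columns), as log2(FPKM + 1) minus the mean of the 6 tumors, with NKMOF short for NKMOF-101-[Mn] and colors saturating at the ends of the scale. Most rows are red in the 3 NKMOF tumors and blue in the 3 M5@NKMOF tumors, palest in NKMOF tumor 1, and Aldh1l1, at 0.46, and Got1, at 0.17, run the other way.

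Further lower genes by the rule belong to RNA modification, to ribosome assembly and to the modification of a translation factor. Eef1akmt4, a methyltransferase of elongation factor eEF1A, had the smallest p of the lower genes of at least 300 bases, at 6.34, 6.25 and 5.07 FPKM in the M5@NKMOF-101-[Mn] tumors against 9.72, 9.95 and 8.63 FPKM in the NKMOF-101-[Mn] tumors, a difference of -0.60 ± 0.14. Pusl1, a pseudouridine synthase of mitochondria, was at 4.01, 4.74 and 3.71 against 6.12, 5.91 and 5.98 FPKM (-0.45 ± 0.11). Ddx31, a helicase of the nucleolus, was at 2.61, 2.54 and 2.22 against 3.35, 3.25 and 3.68 FPKM. Wdr3, part of the machinery that matures the small ribosomal subunit, was at 18.0, 18.1 and 16.5 against 22.5, 19.4 and 23.6 FPKM. The third added list, ribosome biogenesis factors of the nucleolus and likewise chosen from the result, was lower in 39 of 40 (median -0.19). Without overlap were 19 (47.5%) on the deposited scale, 15 (37.5%) after quantile normalization and 14 (35%) after upper-quartile scaling. The shares of all genes were 10.5%, 6.13% and 6.52%. Nop58, a core protein of box C/D snoRNA particles, was at 47.9, 52.6 and 43.9 against 55.2, 58.8 and 61.5 FPKM. Ncl, nucleolin, was at 106, 111 and 93.8 against 116, 124 and 124 FPKM. Fbl, the snoRNA-guided methyltransferase fibrillarin, was at 85.7, 93.2 and 73.5 against 81.6, 97.8 and 102 FPKM. Cytoplasmic ribosomal proteins themselves were near 0: 25 of 75 were higher, the median was -0.02 (0.05 without NKMOF-101-[Mn] tumor 2 and 0.03 after upper-quartile scaling) and all differences lay between -0.19 and 0.20. Of the 75, 2 (2.67%) were lower without overlap on the deposited scale, against 10.5% of all genes. After quantile normalization 11 (14.7%) were, against 6.13%, and after upper-quartile scaling 1 (1.33%), against 6.52%. Rplp1, Rpl32 and Rps2 had log2 fold changes of -0.03, 0.06 and -0.10.

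Small nucleolar RNAs, which guide modification of ribosomal RNA and are mostly cut from introns of other genes, were lower in 91 of 110 tested (median -0.42), 18 (16.4%) without overlap against 10.5% of all genes. At an unadjusted p under 0.05, 9 of the 110 were lower and 2 higher, against 2.2% and 0.866% of all genes. Snord89 was at 2.16, 1.59 and 0.806 FPKM in the M5@NKMOF-101-[Mn] tumors against 7.56, 9.57 and 5.39 FPKM in the NKMOF-101-[Mn] tumors. Snord99 was at 9.86, 12.4 and 6.54 against 20.8, 23.9 and 21.6 FPKM. Snord38a was higher, at 2.46, 2.95 and 2.78 against 0.208, 1.14 and 0.954 FPKM. The groups did not overlap in any of the 3. The abundant Snord78 overlapped, at 156, 206 and 106 against 209.7, 204 and 214 FPKM. The summed level of the list was 1088, 1525 and 729 FPKM against 1451, 1469 and 1491 FPKM, so M5@NKMOF-101-[Mn] tumor 3 was lowest and M5@NKMOF-101-[Mn] tumor 2 highest, and without tumor 3 the median was -0.16. These RNAs are short and carry no poly(A) tail, and what part their capture in a poly(A) library has in these values was not tested.

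The remaining lower genes of the rule lie outside these groups. They include Zfp365, a zinc finger protein, at 2.28, 2.54 and 1.93 against 4.46, 3.12 and 3.52 FPKM. Mapk11, the p38 beta kinase, was at 4.98, 5.39 and 4.29 against 7.45, 6.51 and 5.95 FPKM. Pithd1 was at 14.3, 15.0 and 13.6 against 19.2, 18.5 and 17.9 FPKM. Depdc1a, a gene of dividing cells, was at 3.17, 4.14 and 3.82 against 4.92, 5.87 and 4.32 FPKM. In all 4 the groups did not overlap, which their choice by smallest p makes likely.

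Higher genes by the rule included pigment-lineage and metabolic genes. Cited1, a transcription cofactor expressed in melanocytes, was at 70.0, 49.3 and 78.6 FPKM in the M5@NKMOF-101-[Mn] tumors against 28.4, 37.7 and 32.6 FPKM in the NKMOF-101-[Mn] tumors, a difference of 0.96 ± 0.28. Cited2, its relative and a brake on hypoxia-inducible factor, was at 29.0, 29.8 and 30.2 against 21.0, 22.6 and 27.3 FPKM (0.33 ± 0.11). Hpse, heparanase, was at 41.7, 27.8 and 44.9 against 19.9, 23.1 and 18.0 FPKM (0.85 ± 0.29). Pygm, the muscle form of glycogen phosphorylase, was at 8.46, 8.13 and 7.18 against 3.93, 4.16 and 4.75 FPKM (0.76 ± 0.22). Acacb, the acetyl-CoA carboxylase of mitochondria, was at 4.31, 4.39 and 4.81 against 2.97, 2.64 and 3.23 FPKM. Pik3ip1, an inhibitor of PI3 kinase, was at 11.1, 8.20 and 10.9 against 6.47, 6.28 and 4.74 FPKM (0.69 ± 0.20). Phlda1 was at 169, 189 and 163 against 137, 134 and 138 FPKM. Abhd12, a lysophospholipase, was at 28.6, 26.4 and 28.9 against 23.3, 22.7 and 21.7 FPKM. Ano3 was at 7.78, 9.17 and 8.24 against 4.79, 4.86 and 6.05 FPKM. Creld1 was at 32.7, 26.2 and 29.3 against 21.7, 24.8 and 22.8 FPKM. Zfp935 was at 2.97, 2.66 and 3.44 against 2.28, 2.63 and 1.74 FPKM. All 12 were without overlap, at log2 fold changes of 0.30 to 0.96. They were chosen by smallest p in this comparison, which makes such separation likely, so it adds no support. Of the genes over 300 bases, 4 were more than 2-fold higher at an unadjusted p under 0.05, and they are named although outside the rule. Kcnj13, a potassium channel of pigmented epithelium, was at 22.1, 4.09 and 27.7 against 1.47, 5.84 and 1.07 FPKM. Cck, cholecystokinin, was at 15.3, 7.64 and 28.1 against 2.08, 8.56 and 0.682 FPKM. Gsta1, a glutathione transferase, was at 35.6, 61.6 and 48.5 against 23.99, 31.0 and 14.4 FPKM, and the fourth, LOC118568479, is an uncharacterized locus. In Kcnj13 and Cck M5@NKMOF-101-[Mn] tumor 2 lay among the NKMOF-101-[Mn] tumors.

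Melanoma cell genes were higher in 14 of 15, with a median of 0.32 (0.23 to 0.44 with 1 tumor left out), and 3 of the 15 (20%) did not overlap, against 4.47% of all genes. Oca2, a melanosome ion transporter, was at 32.7, 24.8 and 37.9 FPKM in the M5@NKMOF-101-[Mn] tumors against 10.8, 23.5 and 14.7 FPKM in the NKMOF-101-[Mn] tumors (0.96 ± 0.37). Rab38, which sorts melanosome cargo, was at 199, 183 and 218 against 132, 174 and 145 FPKM. Tyrp1, the third, was at 1265, 1256 and 1275 against 1008, 1185 and 1044 FPKM. Tyr, tyrosinase, was at 101, 78.1 and 117 against 67.2, 86.2 and 52.3 FPKM (0.53 ± 0.23). Dct was at 3185, 2708 and 3416 against 2167, 2904 and 2403 FPKM. The lineage factors Mitf and Sox10 were level. Mitf was at 38.5, 37.5 and 34.6 against 37.8, 33.7 and 36.9 FPKM. Sox10 was at 239, 215 and 215 against 205, 219 and 249.8 FPKM. FPKM are shares of a library, and the stromal genes were lower in the same tumors, so a larger share of melanoma RNA and a smaller share of other RNA cannot be told apart.

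Stromal genes were lower, with NKMOF-101-[Mn] tumor 1 the highest in nearly all of them. Of the extracellular matrix genes 28 of 29 were lower, the median was -1.12 and 15 (51.7%) did not overlap, against 10.5% of all genes. Without NKMOF-101-[Mn] tumor 1 the median was -0.70 and 3 of 29 were higher, without both skin-rich tumors -0.72 and 2, and with the skin epithelium score as a covariate the median was -0.82. Col1a1, the main fiber collagen, was at 31.3, 29.7 and 29.4 FPKM in the M5@NKMOF-101-[Mn] tumors against 233, 96.2 and 71.4 FPKM in the NKMOF-101-[Mn] tumors, a difference of -1.92 ± 0.96. Col3a1 was at 13.6, 16.1 and 19.6 against 139, 51.0 and 29.1 FPKM. Col5a1 was at 3.15, 3.42 and 2.21 against 11.1, 6.50 and 5.64 FPKM. Sparc, which the melanoma cells can express as well, was at 177, 201 and 218 against 308, 234 and 235 FPKM. Mmp14, a membrane protease, overlapped at 95.4, 83.9 and 90.0 against 93.7, 101 and 86.7 FPKM. Elastin (Eln) was at 0.867, 0.305 and 0.753 against 9.65, 5.17 and 0.519 FPKM. Fibroblast and pericyte markers were lower in 9 of 9 (median -0.85, -0.51 without NKMOF-101-[Mn] tumor 1 and -0.42 without both skin-rich tumors), and their sum was 30.5, 50.3 and 33.9 FPKM against 126, 68.8 and 59.5 FPKM. Acta2, an actin of pericytes and myofibroblasts, was at 6.78, 9.06 and 3.37 against 26.6, 18.8 and 15.7 FPKM. Tagln, which binds actin, was at 2.58, 2.99 and 1.59 against 12.0, 7.09 and 4.52 FPKM. Endothelial markers were lower in 17 of 17 (median -0.80, -0.50 without NKMOF-101-[Mn] tumor 1), with a sum of 86.9, 114 and 104 FPKM against 201, 153 and 105 FPKM that overlapped. Of the 17, 1 (5.88%) was lower without overlap, below the 10.5% of all genes. Tie1, a receptor of vessel lining, was at 0.524, 1.52 and 2.01 against 7.21, 5.07 and 1.97 FPKM. Eng, which other cells also express, was at 56.4, 56.5 and 52.4 against 57.0, 60.0 and 54.4 FPKM.

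Among immune cells, some macrophage genes were lower while their sum overlapped. Macrophage and monocyte markers summed to 445, 421 and 517 FPKM against 649, 469 and 428 FPKM, overlapping, while 15 of 19 tested markers were lower (median -0.24, -0.07 without M5@NKMOF-101-[Mn] tumor 1 and -0.47 without M5@NKMOF-101-[Mn] tumor 2). Mrc1, the mannose receptor of tissue-resident macrophages, was at 0.836, 2.82 and 2.69 FPKM in the M5@NKMOF-101-[Mn] tumors against 21.4, 5.34 and 6.91 FPKM in the NKMOF-101-[Mn] tumors, a difference of -1.81 ± 0.64. Lyz2, lysozyme, was at 41.7, 31.1 and 63.5 against 188, 90.9 and 64.2 FPKM, without overlap. Apoe overlapped at 227, 156 and 226 against 194, 208 and 138 FPKM. Spp1, osteopontin, was at 71.6, 27.8 and 64.2 against 21.9, 30.8 and 25.4 FPKM. Other genes of resident macrophages, named after their values were seen, were lower too. Folr2 was at 1.06, 1.09 and 1.06 against 9.31, 2.35 and 2.64 FPKM. Stab1 was at 2.88, 4.77 and 3.62 against 17.9, 6.55 and 8.78 FPKM. Cbr2 was at 1.48, 1.16 and 1.80 against 19.9, 4.74 and 2.18 FPKM. F13a1 was at 0.187, 0.659 and 0.910 against 8.21, 1.06 and 2.13 FPKM. In each of these 4 genes NKMOF-101-[Mn] tumor 1, the tumor with the most skin, fat and muscle signal, was highest and the groups still did not overlap. B and plasma cell markers summed to 8.94, 10.2 and 7.65 FPKM against 14.8, 21.4 and 73.9 FPKM, without overlap. Igkc, the kappa light chain, was at 2.50, 1.28 and 1.14 against 3.56, 10.3 and 50.3 FPKM (-2.43 ± 0.79). Ighg2b was at 0.119, 0.387 and 0.186 against 0.441, 0.681 and 14.6 FPKM, so that NKMOF-101-[Mn] tumor 3 carried most of this signal. T and NK cell markers overlapped, summing to 23.7, 23.6 and 19.7 FPKM against 32.0, 23.4 and 20.2 FPKM, with 8 of 31 tested and 2 of 8 higher. Gzmb, granzyme B, was at 2.44, 4.52 and 2.15 against 1.44, 1.01 and 2.75 FPKM. Trbc2 was at 3.94, 1.94 and 2.06 against 3.98, 1.73 and 0.568 FPKM. Nkg7 was at 1.89, 2.66 and 2.08 against 2.02, 2.74 and 2.35 FPKM. Dendritic cell markers summed to 14.5, 17.6 and 14.9 FPKM against 32.7, 20.1 and 18.2 FPKM. Fscn1, the most abundant of them, was at 6.68, 6.90 and 7.43 against 22.3, 11.6 and 8.22 FPKM. Neutrophil markers summed to 2.93, 4.26 and 24.3 FPKM against 18.8, 6.25 and 13.4 FPKM, with Ly6g, Ltf and Mpo at 0 in all 6 tumors. S100a8, an alarmin of neutrophils, was at 0.593, 1.52 and 10.8 against 4.50, 0.344 and 6.03 FPKM. Mast cell markers summed to 0.113, 0.121 and 2.97 FPKM against 15.4, 2.35 and 0.860 FPKM.

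Lists for tissue from outside the tumor overlapped between the groups. Krt14, a keratin of basal skin cells, was at 0, 0.272 and 134 against 375, 0 and 52.7 FPKM, and all 24 tested skin genes had a negative log2 fold change (median -0.91), which turned to 17 of 24 positive (median 0.11) without NKMOF-101-[Mn] tumor 1. Adipocyte markers summed to 10.4, 17.8 and 16.8 FPKM against 76.5, 27.4 and 15.5 FPKM, with Ucp1 at 0 in all 6 tumors. Skeletal muscle markers summed to 55.4, 36.9 and 35.1 FPKM against 75.9, 61.9 and 35.0 FPKM. Red blood cell genes summed to 532, 5837 and 3392 FPKM against 1933, 329 and 2185 FPKM. Nerve genes summed to 30.2, 25.8 and 24.1 FPKM against 34.0, 28.5 and 28.0 FPKM, and hair shaft genes to at most 0.127 FPKM. What part such tissue has in the stromal differences was not tested beyond leaving out tumors and adding the skin score.

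**Figure D4:**
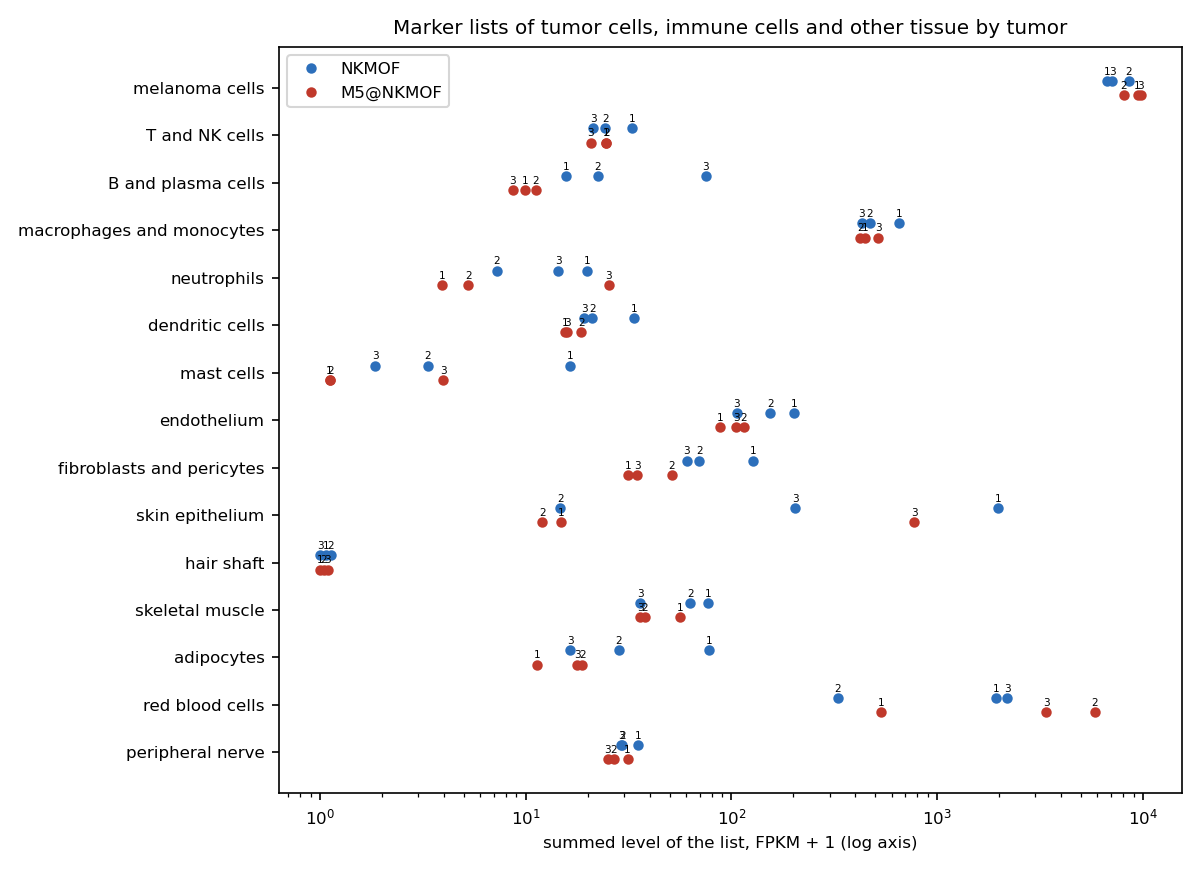
Summed level of each marker list in single tumors, FPKM + 1 on a log axis, with the tumor number above each point, for NKMOF (NKMOF-101-[Mn], blue) and M5@NKMOF (M5@NKMOF-101-[Mn], red). B and plasma cell, dendritic cell and fibroblast sums do not overlap, NKMOF tumor 1 is the highest for skin epithelium at 1971 FPKM, and melanoma sums lie between 6713 and 9778 FPKM.

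Glycolytic genes were slightly higher, and metal-handling genes were close between the groups. Glycolysis and hypoxia genes were higher in 24 of 26 (median 0.23, 0.16 to 0.34 with 1 tumor left out), 6 (23.1%) without overlap against 4.47% of all genes. Tpi1, a glycolytic isomerase, was at 1878, 1788 and 2059 FPKM in the M5@NKMOF-101-[Mn] tumors against 1436, 1540.0 and 1627 FPKM in the NKMOF-101-[Mn] tumors (0.31 ± 0.20). Pgk1 was at 1989, 2079 and 2289.5 against 1696, 1728 and 1962 FPKM. Eno1 was at 2455, 2646 and 2675 against 2032, 2169.9 and 2602 FPKM. Aldoc, the brain form of aldolase, was at 33.8, 23.6 and 40.4 against 22.7, 24.7 and 21.4 FPKM with an unadjusted p under 0.05. Gapdh went the other way at 33.6, 58.5 and 44.0 against 52.7, 83.1 and 76.6 FPKM, and its many pseudogene copies make its counting uncertain. Both groups received manganese, and of the manganese, zinc and iron genes 14 of 21 were higher (median 0.06, 0.12 without NKMOF-101-[Mn] tumor 1). Mt1, a metallothionein induced by metals, was at 226, 268 and 232 FPKM in the M5@NKMOF-101-[Mn] tumors against 156, 174 and 202 FPKM in the NKMOF-101-[Mn] tumors, a difference of 0.45 ± 0.25 without overlap. Mt2 overlapped at 321, 443 and 362 against 217, 227 and 374 FPKM. Ferritin light chain (Ftl1) was at 4062, 4089 and 4253 against 3180.1, 4062 and 3481 FPKM. Ferritin heavy chain (Fth1) was at 672, 816 and 867 against 677, 733 and 689 FPKM. Sod2, the manganese superoxide dismutase, was at 18.3, 18.5 and 19.4 against 18.2, 18.4 and 17.8 FPKM. Slc40a1, the iron exporter of macrophages, was at 0.620, 0.567 and 1.17 against 3.16, 1.14 and 0.865 FPKM.

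Redox and ferroptosis defense genes had 10 of 15 higher with a median of 0.07 (0.01 without M5@NKMOF-101-[Mn] tumor 3), and Prdx1, Txn1 and Sod1 had log2 fold changes of 0.16, -0.07 and 0.01. Lysosome genes had 13 of 19 higher (median 0.13, 0.05 without M5@NKMOF-101-[Mn] tumor 3). Ctsd, the protease cathepsin D, was higher without overlap at 531, 478 and 572 FPKM in the M5@NKMOF-101-[Mn] tumors against 442, 454 and 419 FPKM in the NKMOF-101-[Mn] tumors (0.26 ± 0.12), while Ctsz and Lamp1 had log2 fold changes of 0.05 and -0.03. Cell death genes had 12 of 16 higher (median 0.06, 0.03 without NKMOF-101-[Mn] tumor 2). Mlkl, the effector of necroptosis, was at 8.18, 7.49 and 7.58 against 5.77, 5.22 and 7.16 FPKM. Ripk3, the kinase that activates it, was lower at 0.818, 1.63 and 1.27 against 3.76, 1.65 and 2.34 FPKM, both without overlap. Bax and Bak1 had log2 fold changes of -0.05 and 0.06. Mcl1, which blocks apoptosis, was at 26.6, 27.5 and 26.4 against 25.3, 25.7 and 25.3 FPKM.

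Cell cycle genes were lower in 31 of 33 by small amounts (median -0.11, -0.17 to -0.04 with 1 tumor left out, nearest to 0 without M5@NKMOF-101-[Mn] tumor 3), with 2 higher (6.06%, against 4.47% of all genes) and 4 lower (12.1%, against 10.5%) without overlap. Mki67, the proliferation marker, was at 47.6, 65.4 and 47.2 FPKM in the M5@NKMOF-101-[Mn] tumors against 51.1, 56.2 and 58.4 FPKM in the NKMOF-101-[Mn] tumors. The 4 lower ones on this scale were Foxm1, Tyms, Aurka and Cdc20, and the 2 higher ones Cdkn1b and Cdk2. After quantile normalization 1 of 33 (3.03%) was lower without overlap, against 6.13% of all genes. The same count after upper-quartile scaling stood against 6.52%, and 2 were higher under either scaling. Cdkn1b, the inhibitor p27, was at 45.2, 52.5 and 56.1 against 40.9, 44.4 and 44.4 FPKM. Cdk2 was at 176, 172 and 176 against 149, 169 and 147 FPKM. Pcna was at 254, 275 and 234 against 269.7, 316 and 252 FPKM. Cdk4 was at 245, 237 and 229 against 234, 269 and 219 FPKM. Immediate early genes, which respond to handling as well as to growth factors, were lower in 20 of 25 (median -0.14, -0.44 without M5@NKMOF-101-[Mn] tumor 2 and -0.02 without both skin-rich tumors). Fos was at 73.1, 127 and 38.2 against 60.2, 40.4 and 108 FPKM. Jun was at 48.2, 74.0 and 28.1 against 51.9, 36.7 and 69.0 FPKM, with the groups overlapping in both. Ccn2, a target of YAP and TGF-beta signaling, was lower without overlap at 7.64, 9.76 and 7.96 against 30.8, 16.1 and 22.1 FPKM. Mitochondrially encoded subunits had 5 of 13 higher (median -0.04, 0.08 without M5@NKMOF-101-[Mn] tumor 3 and 0.01 after upper-quartile scaling), and COX1 was at 3556, 4296 and 3367 against 3778, 3565 and 3450.3 FPKM.

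**Figure D5:**
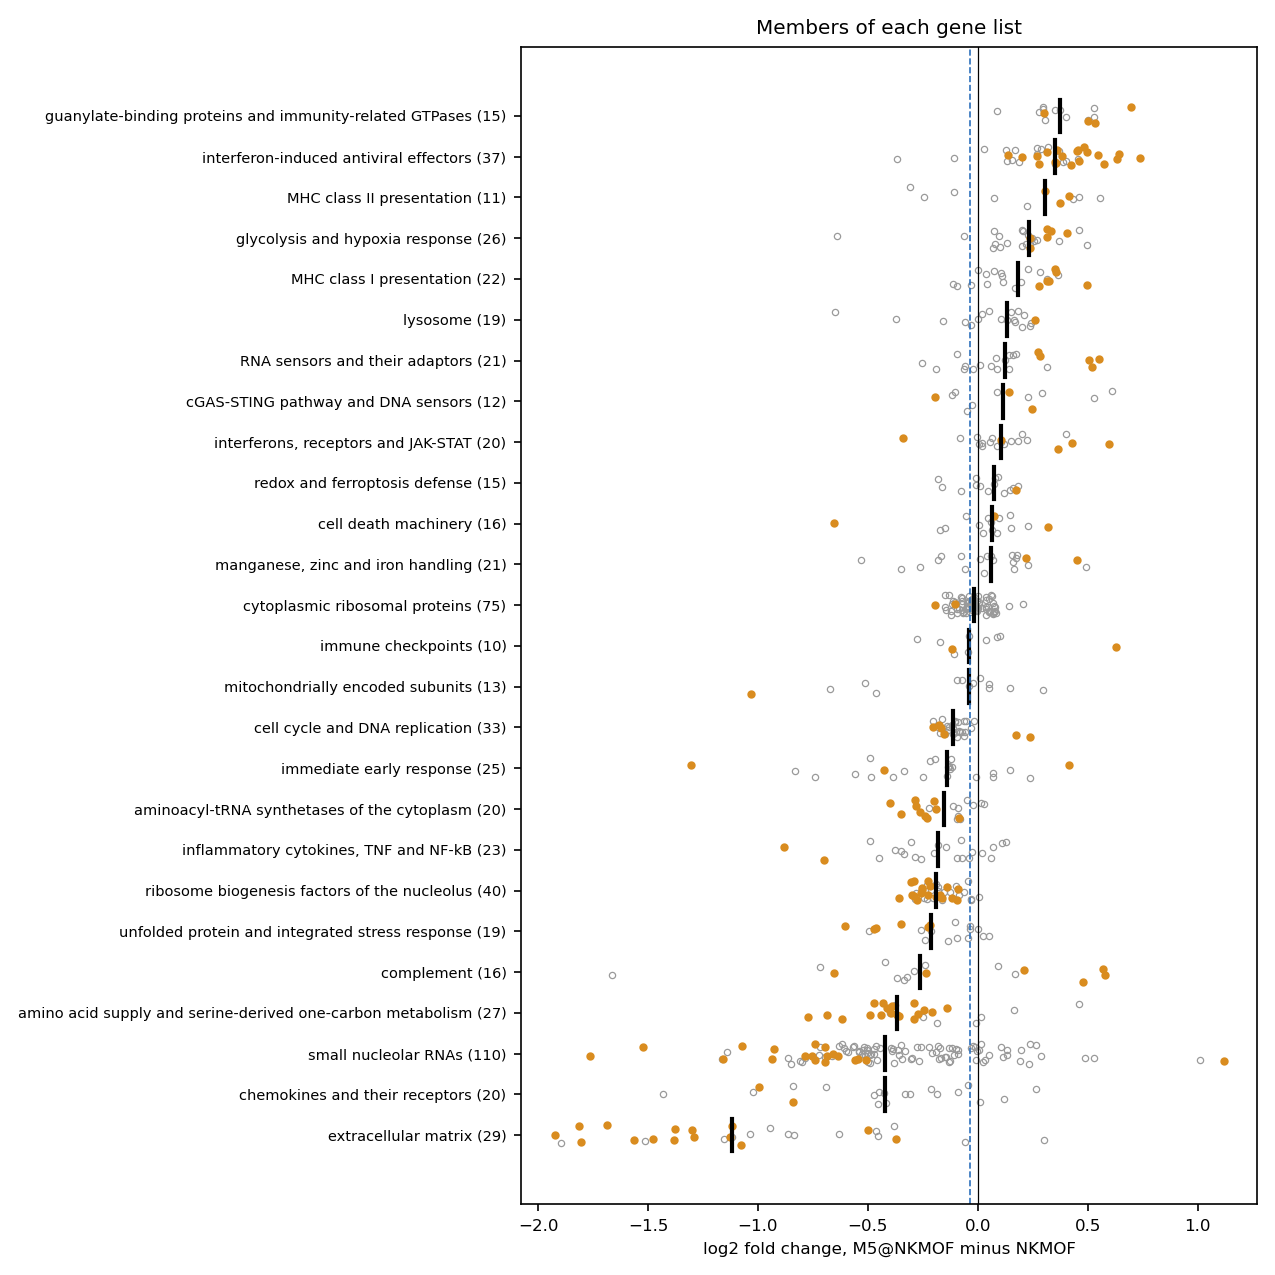
Log2 fold change of every tested member of each gene list shown (number tested in brackets), M5@NKMOF-101-[Mn] minus NKMOF-101-[Mn]. The list of oligoadenylate synthetases and RNase L is left out. Filled orange points are genes whose groups do not overlap, and black ticks are list medians. A dashed line marks the median of all genes tested, -0.03. Interferon-induced lists lie to the right of the line with medians up to 0.38, and extracellular matrix (-1.12), chemokines (-0.42) and the amino acid list written afterwards (-0.37) to the left.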

How the data were processed

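Whole-tumor RNA was selected by poly(A), copied with random hexamers and sequenced, with no strand marking stated, for 18 tumors in 6 groups of 3. Per the labels and the file header, the authors deposited one table of FPKM with gene lengths for 41079 genes. The submitters' processing notes name mouse build GRCm39, and the aligner and counter are not given in the sources used here. FPKM times length summed to the same total in every tumor. Between 40.7% and 43.2% of the values above 0 in a tumor were whole multiples of the commonest step (within 0.02 of a fragment), so counts were not recovered and no count test was run.

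Values were analyzed as log2(FPKM + 1), for genes with a mean of 1 FPKM or more, with limma 3.58.1 in R 4.3.3. Means of all 6 groups were fitted together with a trend in the prior variance, NKMOF-101-[Mn] was subtracted from M5@NKMOF-101-[Mn], with Benjamini-Hochberg adjustment of the p-values over all tested genes. The fit was tested on simulated data. A pseudocount of 1 understates differences of low genes. Intervals are 95% limma intervals. Cd274 was also tested by an exact permutation over tumors.

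Named genes were Cd274, the 12 higher and 12 lower genes with the smallest p (300 bases or longer, without clone or locus names), and list members past an unadjusted p under 0.05 or among the 3 most abundant. Others were picked for their role after their values were seen. The comparison, the gene lists and the marker lists were chosen with earlier results of these data known. Lists are described by counts and medians without a test, and some items are not reported here. Alternatives were another pseudocount, 2 filters, 3 scalings, the 2 groups alone, no trend, array weights (whose estimate gave a convergence warning), a skin epithelium score, the replicate block, leaving out each tumor and, for marker sums, the mean of log values.

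Positions of the Cd274 site come from a transcript annotation of GRCm38, GENCODE M21, and not from the build of the FPKM table. No 2 tumors had identical values.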

Additional observations from a re-analysis of the deposited data

How the results depend on the processing

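No gene passed an adjusted p of 0.05 under the alternatives, except 2 without a filter on level. These were Gm12790 and Gm30953, with limma adjusted p of 0.0225 and 0.00972, and neither reached 0.1 FPKM in any tumor. Cd274 stayed higher throughout, at 0.46 to 0.70. Among genes with an unadjusted p under 0.05 (107 higher, 272 lower), no filter gave 765 and 668, a filter at 0.1 FPKM 219 and 438, quantile normalization 194 and 179, upper-quartile scaling 185 and 163, the 2 groups alone 374 and 710, and array weights 538 and 1176. Leaving out single tumors gave 36 to 196 higher and 92 to 362 lower, the lowest without M5@NKMOF-101-[Mn] tumor 3 and the highest without tumor 2 of that group, with 49 and 164 without NKMOF-101-[Mn] tumor 1 and 53 and 178 without M5@NKMOF-101-[Mn] tumor 1. Beyond 2-fold (10 higher, 34 lower), a pseudocount of 0.1 gave 59 lower, the 2 groups alone 68 lower, array weights 119 lower, and rescaling without short and mitochondrial genes 4 higher. Single tumors left out gave 5 to 14 higher and 15 to 72 lower. The fewest of both came without NKMOF-101-[Mn] tumor 1, which kept 5 of the 10 and 10 of the 34, and the most lower ones without NKMOF-101-[Mn] tumor 3, with 52 without M5@NKMOF-101-[Mn] tumor 2. Without both skin-rich tumors, a choice made after seeing the data, 22 were higher and 62 lower, of which 3 and 9 beyond 2-fold. Of the 10 higher and 34 lower genes beyond 2-fold in the main fit, that setting kept 1 and 6. Groups did not overlap for 1386 genes higher and 2020 lower without a filter, 829 higher with the filter at 0.1 FPKM, 996 and 757 after quantile normalization, and 941 and 806 after upper-quartile scaling. More or fewer genes enter under the filters. The cause of the other shifts was not tested. Rescaling without short and mitochondrial genes gave no value for small nucleolar RNAs and mitochondrially encoded subunits.

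Same-numbered tumors of the 2 groups had correlations of deviations of -0.49, 0.08 and -0.23, so the numbers were not taken to pair them. With the replicate block, 96 genes were higher and 237 lower at an unadjusted p under 0.05, of which 10 and 32 beyond 2-fold, 0 passed the adjusted test, and Cd274 was at 0.63. With 3 tumors a group, an exact test of a single gene cannot go below 0.1.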
